A study of Mus musculus with 6 samples.

Results

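The proteasome subunit genes are the mouse protein-coding genes whose names begin with Psma, Psmb, Psmc or Psmd and a digit, without the inducible immunoproteasome genes Psmb8, Psmb9 and Psmb10. The rule used gene names and annotation alone, and it found 37 genes among the 54532 of the deposited table. RNA sequencing libraries came from bone marrow neutrophils of wild-type (WT) and progranulin knockout (PGRN KO) mice, 3 of each genotype. The cells had been bound through Ly-6G on magnetic beads, and all 6 cultures received live Candida albicans for 6 h, so no uninfected library is compared here. The labels give the strain of both genotypes as C57BL/6J and call the WT cultures control, by which they mean the genotype, since the treatment field is the same for all. The PGRN KO mice came from the Jackson Laboratory, the WT mice came from a university colony, and genotype and source of the mice cannot be told apart. Mice of both genotypes were matched for sex and age, and neither the ages nor the number of mice behind each culture is given in the sources used here, so p-values measure the spread between these cultures.

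The proteasome is the protease complex that degrades proteins tagged with ubiquitin. Its core particle (20S) is a barrel of stacked rings, the outer ones made of alpha subunits (Psma genes) and the inner ones of beta subunits (Psmb genes), and the active sites lie inside on Psmb5, Psmb6 and Psmb7. The regulatory particle (19S) caps the barrel. Its base holds a ring of ATPases (Psmc genes) that unfold the substrate and large scaffold and receptor subunits, and its lid (most Psmd genes) removes the ubiquitin chain. In immune cells, interferon signaling can replace the constitutive catalytic subunits with Psmb8, Psmb9 and Psmb10, which changes the peptides that the complex releases.

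Of the 37 genes, 14 encode the core particle, 17 the regulatory particle and 3 (Psmd5, Psmd9, Psmd10) chaperones that help to assemble the regulatory particle. Psmc3ip matched the name pattern, but it is a partner of recombination proteins and no proteasome subunit. Psma8, the alpha subunit of germ cells, and Psmb11, the beta subunit of the thymic cortex, held at most 2 fragments in all libraries of a genotype together and were not tested. The other 35 genes were tested with limma on log2(FPKM + 1) among 14807 genes, where FPKM is a number of fragments scaled by the length of the gene and the size of the library, and a gene was called at an adjusted p under 0.05. Grn, the gene of progranulin, was at 168, 161 and 166 FPKM in WT against 0.242, 0.206 and 0.747 in PGRN KO, so every library matched its genotype label.

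The libraries held 17087344 to 18821091 fragments on genes. Neutrophil markers S100a8, S100a9 and Ly6g averaged 17949, 31333 and 49.9 FPKM in WT against 16846, 36371 and 45.6 in PGRN KO, and of 10 mature neutrophil markers 1 was called higher and 2 lower. Markers of other cells moved with genotype. All 5 markers of primary granules and promyelocytes were higher in PGRN KO (summed FPKM 128.7 to 143.8 in WT against 608.7 to 670.4 in PGRN KO), as were 8 of 12 cell cycle genes (224.7 to 230.1 against 270.9 to 288.5). For B and plasma cells 6 of 9 markers were higher and Ighm was lower (446.8 to 462.2 against 2169 to 2464). The basophil list had 4 of 6 higher (2.04 to 2.47 against 11.0 to 12.5) and the erythroid list 4 of 8 (2.65 to 4.87 against 7.98 to 8.60). In the T and NK cell list 1 of 7 was higher, Nkg7, which averaged 2.54 FPKM in WT against 7.79 in PGRN KO. Nkg7 made up most of the sum of that list (2.74 to 3.61 against 7.77 to 9.22). Cd3d (0.43 in WT, 0.28 in PGRN KO) and Trac (0.21 and 0.30) were not called, and Cd3e and Cd3g were at 0 in every library. Of 7 monocyte markers 4 were lower (145.1 to 149.5 against 110.0 to 126.9). The part of these cells in the proteasome values below was not tested, and in bulk RNA fewer cells of a type cannot be told apart from less RNA per cell.

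Every core and regulatory particle gene was expressed in both genotypes. Mean FPKM in WT ran from 10.7 for Psmd3, a lid subunit, to 95.6 for Psmb5, the subunit with chymotrypsin-like activity, an 8.93-fold range. Each of these proteins is used in equal number in its particle, yet FPKM spread 5.21-fold within the alpha ring, from Psma3 at 13.8 to Psma6 at 72.2 in WT. The lid spread 7.41-fold, with Psmd8 at 79.4 and the next lid gene, Psmd7, at 22.9, while the 6 ATPases lay within 2.22-fold of each other, from 15.9 (Psmc2) to 35.3 (Psmc1). FPKM divides by the length of all annotated exons merged, so the order of levels between genes depends on the annotation. Libraries of the same genotype differed little. The median coefficient of variation was 3.18% in WT against 5.62% in PGRN KO over core genes, and 2.78% and 4.13% over regulatory genes. PGRN KO replicate 6 gave the highest value of its genotype in 10 of 14 core genes and 8 of 17 regulatory genes.

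**Figure D1:**
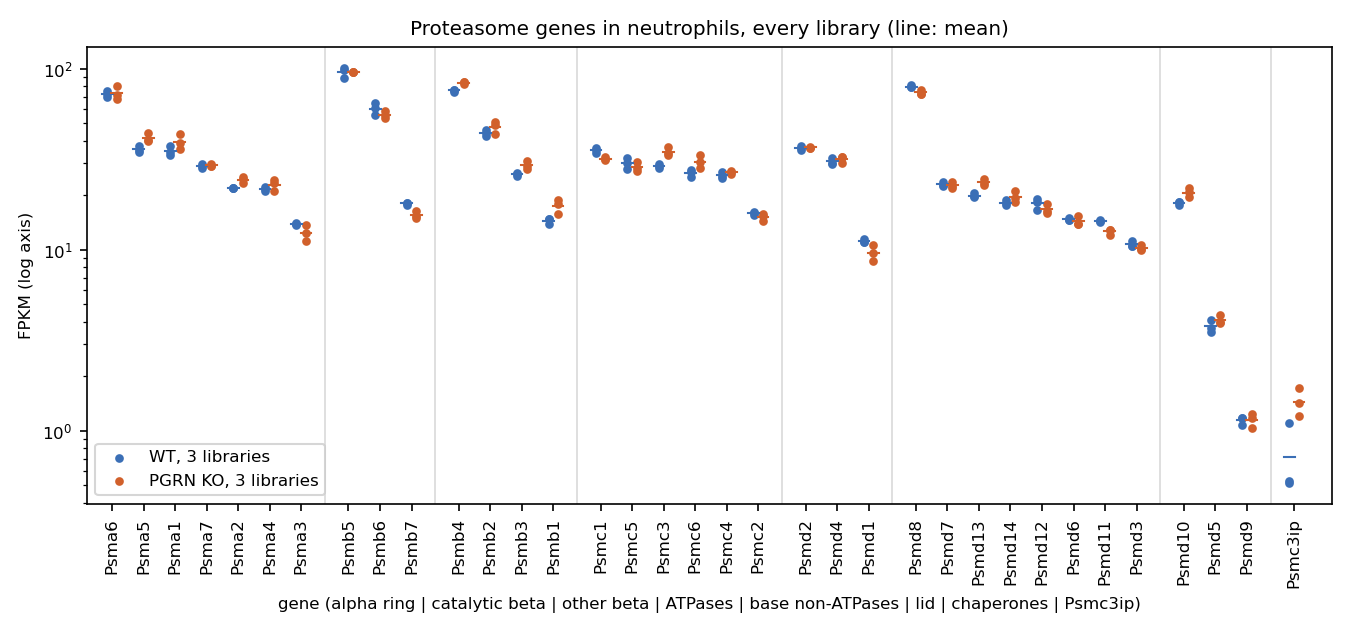
FPKM of the 35 tested proteasome genes on a log axis, ordered by group and by mean level in WT. Each point is 1 library (3 WT, blue; 3 PGRN KO, orange), short lines are the means, and most genes have points of both genotypes close together between 10 and 100 FPKM.

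Between genotypes, 5 of the 35 tested genes were called (14.3%), where 17.9% of all 14807 genes were. Each of the 5 belongs to another group of subunits. Psmc3, Psmd13, Psma5 and Psmb4 were higher in PGRN KO (4 of 35, against 7.94% of all genes), and Psmb7 was lower (1 of 35, against 9.95%). The values of the genotypes did not overlap in 15 genes (42.9%, 10 higher and 5 lower in PGRN KO), against 37.7% of all genes. In this fit both shares were close to those of the whole table, so neither is a result particular to the proteasome genes. With the plain-total, voom and quantile scalings described below, a larger share of proteasome genes than of all genes was called higher. That difference was not tested.

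Psmc3, an ATPase of the base (ENSMUSG00000002102, chr2:91054009-91066369, GRCm38, plus strand), had 28.3, 29.7 and 28.9 FPKM in WT against 34.0, 37.0 and 33.4 in PGRN KO. All PGRN KO values lay above all WT values, with a log2 fold change of 0.26 ± 0.052 (SE, n = 3 per genotype; limma adjusted p = 0.0182). Psmd13, a structural subunit of the lid (chr7:140881968-140898643), had 20.5, 19.7 and 19.4 FPKM in WT against 22.8, 24.7 and 23.4 in PGRN KO. Its groups did not overlap either, and its log2 fold change was 0.24 ± 0.048 (limma adjusted p = 0.0188). These were the 2 calls in the regulatory particle, and no regulatory gene was called lower.

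In the core particle, Psma5 of the alpha ring (chr3:108256926-108279974) was at 37.3, 34.5 and 35.6 FPKM in WT against 39.7, 40.5 and 44.3 in PGRN KO. This is a log2 fold change of 0.21 ± 0.056 (limma adjusted p = 0.0491), just inside the threshold. Psmb4, a beta subunit without an active site (chr3:94884093-94886961), was at 74.2, 76.6 and 76.6 FPKM in WT against 84.5, 84.2 and 81.8 in PGRN KO. It is among the most abundant core transcripts, and with 7511 fragments in WT against 9065 in PGRN KO a rise of 10.2% in mean FPKM passed the test (log2 fold change 0.14 ± 0.037, limma adjusted p = 0.0476).

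Psmb7, the catalytic subunit with trypsin-like activity (chr2:38588036-38644087, minus strand), was the member called lower. It had 18.1, 18.2 and 17.7 FPKM in WT against 16.3, 15.0 and 15.3 in PGRN KO, without overlap, and fell by 0.20 on the log2 scale (SE 0.049, limma adjusted p = 0.0317). The library kit does not mark strand, and 405 annotated exon bases of Psmb7 are shared with Nek6, a mitotic kinase gene on the opposite strand, whose mean FPKM was 11.3 in WT against 7.59 in PGRN KO (log2 fold change -0.52, limma adjusted p = 0.0045). Fragments from the shared bases cannot be assigned to 1 of the 2 genes by strand, and the part of Nek6 in the Psmb7 value was not tested. The exons that Psmc3 shares with Slc39a13 (215 bases) and Psmd13 with Sirt3 (342 bases) belong to genes at 1.30 and 0.39 FPKM, averaged over the 6 libraries. Psma5 shares 60 bases with an antisense gene at 0.29 FPKM.

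None of the 5 calls was held by every way of processing. All 5 were lost without PGRN KO replicate 5, without WT replicate 2 and without WT replicate 3, where no proteasome gene passed the limma threshold and the calls over all genes fell from 2648 to 1322, 1335 and 1662. Without PGRN KO replicate 4, 6 proteasome genes were called, without PGRN KO replicate 6 it was 3, and without WT replicate 1 it was 2. Psma5 and Psmb4 were not called in any of these 6 fits, and Psmb7 only without PGRN KO replicate 4. Leaving out a library also removes a residual degree of freedom from every gene's test.

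**Figure D2:**
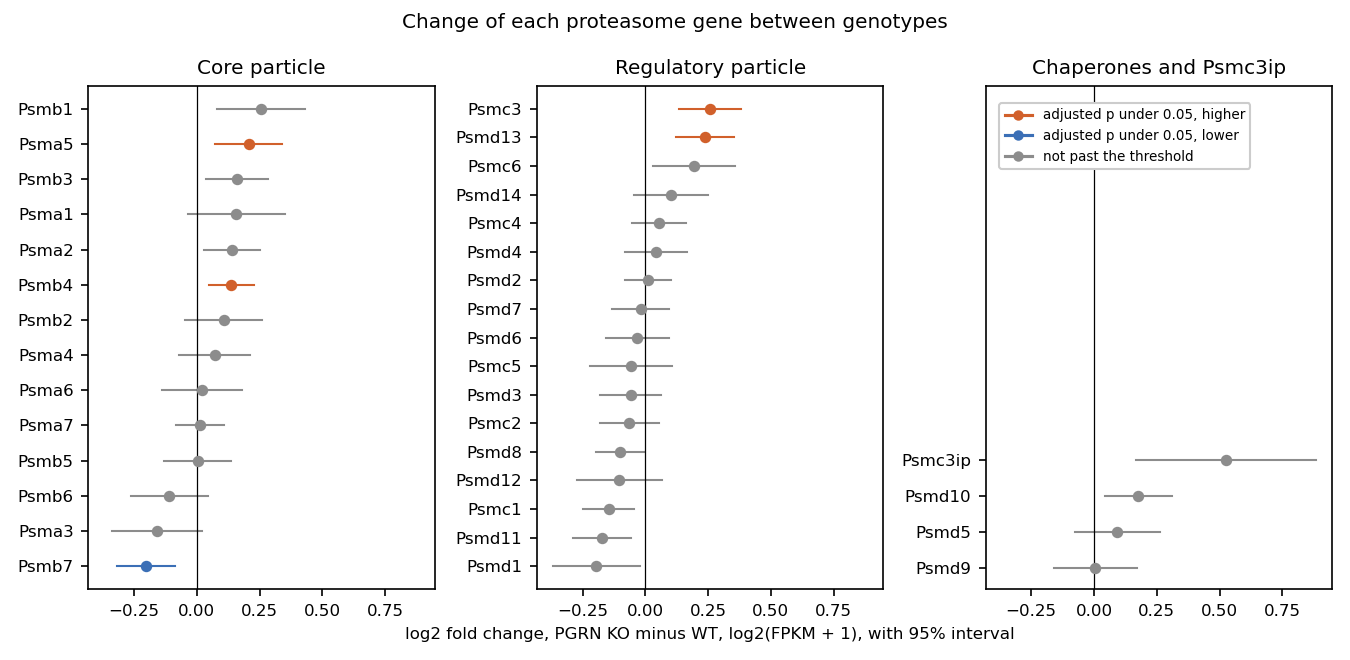
Log2 fold change of each tested gene (PGRN KO minus WT, on log2(FPKM + 1)) with its 95% interval from limma, by particle. Orange and blue mark the 4 genes called higher and the 1 called lower, and core genes lie mostly to the right of 0 while regulatory genes lie on both sides.

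The remaining catalytic subunits gave no call. Psmb5 had 97.8, 101 and 88.2 FPKM in WT against 95.4, 95.9 and 96.1 in PGRN KO. The groups overlapped, and the 95% interval of its change ran from -8.54% to 10.0%. Psmb6, which carries the caspase-like activity, had 64.4, 60.2 and 55.6 FPKM in WT against 58.1, 55.6 and 53.1 in PGRN KO, with an interval from -16.6% to 3.12%. Changes within these intervals are compatible with the values of the 3 libraries per genotype.

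Psmd14, the deubiquitinase of the lid, and Psmd4, a ubiquitin receptor of the base, were also unresolved. Psmd14 had 17.7, 18.7 and 18.0 FPKM in WT against 18.3, 19.3 and 21.2 in PGRN KO (95% interval of the log2 fold change -0.044 to 0.25). Psmd4 had 29.8, 30.2 and 32.2 FPKM in WT against 32.4, 32.4 and 30.1 in PGRN KO (interval -0.082 to 0.16). In both genes the ranges of the genotypes overlapped.

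Several genes came near the threshold, in both directions. In the regulatory particle, Psmd11 (log2 fold change -0.17, limma adjusted p = 0.0529) and Psmc1 (-0.15, limma adjusted p = 0.0603) were lower in PGRN KO without overlap. Psmb1, a structural beta subunit, had 14.7, 13.8 and 14.8 FPKM in WT against 15.7, 17.8 and 18.9 in PGRN KO, a log2 fold change of 0.26 ± 0.073 (limma adjusted p = 0.0558). Its fold change was as large as that of Psmc3, with a wider spread between the PGRN KO cultures. Psmc3ip, the gene that is no subunit, had the largest value of all, with 1.10, 0.528 and 0.514 FPKM in WT against 1.42, 1.73 and 1.2 in PGRN KO (log2 fold change 0.53 ± 0.15, limma adjusted p = 0.0561). It rests on 66 fragments in WT against 146 in PGRN KO, and it shares 385 exon bases with Mlx on the opposite strand, at 19.6 FPKM in WT against 22.1 in PGRN KO.

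The medians of the core and the regulatory particle lay on either side of 0. Of the 14 core genes, 11 had a log2 fold change above 0 and 3 (Psmb6, Psma3, Psmb7) below 0, with a median of 0.090. Of the 17 regulatory genes, 7 were above and 10 below, with a median of -0.032. The median of all tested genes was 0.0026. Within the core, the 4 beta genes without an active site all lay above 0 (0.11 to 0.26), 6 of 7 alpha genes did (-0.16 to 0.21), and of the 3 catalytic genes Psmb5 alone did, at 0.0047. Within the regulatory particle, the ATPases split 3 and 3, and 6 of the 8 lid genes lay below 0. Without WT replicate 3, 8 of the 14 core genes and 8 of the 17 regulatory genes were above 0. With any other library left out, 10 or 11 core genes were.

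The core genes summed to 570.3, 568.9 and 551.8 FPKM in WT against 569.7, 587.1 and 606.7 in PGRN KO, and the regulatory genes to 437.7, 441.6 and 437.2 in WT against 436.3, 438.1 and 444.6 in PGRN KO. PGRN KO replicate 4 lay inside the WT range for the core sum. The mean log2(FPKM + 1) of core genes minus that of regulatory genes in the same library was 0.56, 0.54 and 0.53 in WT against 0.56, 0.62 and 0.64 in PGRN KO, so the genotypes overlapped. Because 1 is added to FPKM, scaling a library with a single factor alters this within-library difference slightly, and quantile normalization can alter it too. The difference was chosen after the values of the genes had been seen. It is given without a test.

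The direction of the regulatory genes depended on the scaling. The library sizes behind the deposited FPKM are not the plain totals of fragments on genes. Median-of-ratios scaling of the deposited values gave the same medians and calls, so they already stood on that scale. The totals were 1.03 to 1.04 times the size used in WT against 0.946 to 0.957 times in PGRN KO. With plain totals the median of all genes moved to 0.067, that of core genes to 0.21 and that of regulatory genes to 0.080. There 12 of the 35 tested proteasome genes were called, all higher, against 14.5% of all genes called higher. With limma voom on the recovered fragments, the medians were 0.12, 0.21 and 0.087, with 14 of the 35 called, all higher (against 20.2% of all genes). With quantile normalization, 7 of the 35 were called higher (against 7.73% of all genes) and Psmb7 lower. Psmb7 kept a value below 0 under plain totals (-0.090, limma adjusted p = 0.23) and voom (-0.095, adjusted p = 0.34) but lost its call, whereas Psmc3, Psmd13, Psma5 and Psmb4 were called higher under all 3 of these scalings. The median of core genes exceeded that of regulatory genes by 0.12 as reported, and by 0.084 (without PGRN KO replicate 5) to 0.14 (quantile normalization) over the alternatives.

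**Figure D3:**
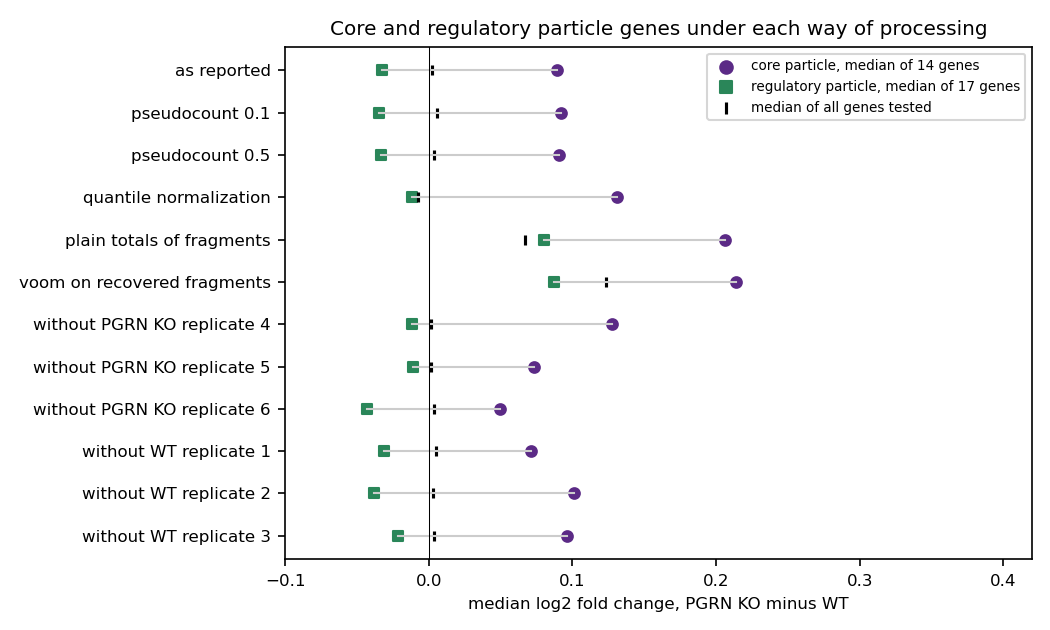
Median log2 fold change (PGRN KO minus WT) of the 14 core genes (circles), the 17 regulatory genes (squares) and all genes tested (bars) as reported and under other pseudocounts, scalings and left-out libraries. The circle lies to the right of the square in each row shown, while the position of both against 0 moves with the scaling.

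As a share of all fragments, the 37 genes took 0.246%, 0.246% and 0.243% in WT against 0.265%, 0.273% and 0.278% in PGRN KO, with every PGRN KO library above every WT library. These shares follow the plain totals.

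Of the assembly chaperones, Psmd10 (gankyrin) was at 18.1 FPKM in WT against 20.6 in PGRN KO (log2 fold change 0.18, limma adjusted p = 0.0745), Psmd5 was at 3.76 and 4.07 and Psmd9 at 1.14 and 1.15. Only the Psmd10 values did not overlap between the genotypes.

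The sequences before the start sites were read to see what core and regulatory genes share. RefSeq promoters (GRCm38.p6) were found for 30 of the 37 genes, 11 of the core and 14 of the regulatory particle among them. The 250 bases before each start were searched on both strands for TGACNNNGC (the core of the antioxidant response element, bound by Nfe2l1 and Nfe2l2 with small Maf partners), CCAAT (bound by NF-Y), GGGCGG (bound by Sp1) and CCGGAAG (bound by ETS factors). The motif that differed most in frequency was CCGGAAG. It stood in 8 of 14 regulatory promoters (57.1%) and 1 of 11 core promoters (9.09%, Psma6), against 7.83% of all 27025 promoters and 16.5% of the 9322 promoters of tested genes. CCAAT stood in 6 of 11 core promoters (54.5%) and 4 of 14 regulatory ones (28.6%), against 37.5% of all and 40.5% of tested. GGGCGG stood in 45.5% and 64.3% of them (35.4% of all, 61.6% of tested), and TGACNNNGC in 5 of the 30 (16.7%), against 11.5% of all and 14.1% of tested. In Psmd9 a TGACNNNGC match overlaps a GGGCGG match. A match is a run of letters and no evidence of binding.

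Below are stretches that end at the base before the RefSeq start site, 5′ to 3′ in the direction of the gene, with capitals only for the motif that each is shown for. GGGCGG matches also lie in the stretches of Psma1 (on both strands), Psmd2 and Psmd11, and they are left in lower case. Psmb5, chr14:54617996-54618095 (- strand), and Psmb6, chr11:70525257-70525356 (+ strand), are shown because they are the catalytic genes with a TGACNNNGC match. The match in Psmb5 begins 47 bases before the start, and that in Psmb6 ends at the last base before it.
Psmb5: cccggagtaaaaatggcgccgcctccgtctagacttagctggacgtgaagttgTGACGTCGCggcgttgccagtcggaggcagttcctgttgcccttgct
Psmb6: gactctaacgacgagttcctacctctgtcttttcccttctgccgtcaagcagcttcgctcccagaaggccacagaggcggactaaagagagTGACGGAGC
Psma1, chr7:114276117-114276266 (- strand), stands for the core genes with CCAAT, which it holds on each strand (ATTGG is CCAAT on the other strand), and it was at 35.1 FPKM in WT against 39.3 in PGRN KO.
Psma1: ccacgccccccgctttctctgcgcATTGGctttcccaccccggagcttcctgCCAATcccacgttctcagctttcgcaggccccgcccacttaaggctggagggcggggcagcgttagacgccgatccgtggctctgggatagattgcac
Psmd2, chr16:20651552-20651651 (+ strand), and Psmd11, chr11:80428515-80428614 (+ strand), stand for the regulatory genes with CCGGAAG, here read on the other strand as CTTCCGG. Psmd2, a large scaffold of the base, had a log2 fold change of 0.011, and Psmd11, a lid subunit, had -0.17 (limma adjusted p = 0.0529).
Psmd2: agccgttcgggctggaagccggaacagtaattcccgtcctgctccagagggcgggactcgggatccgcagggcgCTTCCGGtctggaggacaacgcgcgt
Psmd11: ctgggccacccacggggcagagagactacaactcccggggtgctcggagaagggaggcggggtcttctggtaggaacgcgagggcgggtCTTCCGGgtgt
Psma5, chr3:108256776-108256925 (+ strand), and Psmb4, chr3:94886959-94887108 (- strand), the core genes called higher, are shown because their 250 bases hold none of the 4 motifs.
Psma5: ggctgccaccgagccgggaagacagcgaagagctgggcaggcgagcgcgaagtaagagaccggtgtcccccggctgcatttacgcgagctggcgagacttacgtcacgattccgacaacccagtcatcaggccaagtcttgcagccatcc
Psmb4: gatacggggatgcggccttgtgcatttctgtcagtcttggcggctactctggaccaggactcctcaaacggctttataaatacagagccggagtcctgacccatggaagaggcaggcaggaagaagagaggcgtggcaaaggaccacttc
The Psmd13 promoter held none of the 4 motifs either. Psma8, Psmb1, Psmb2, Psmb7, Psmc3, Psmd3 and Psmd7 had no entry.

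The inducible counterparts of the catalytic subunits were compared with the genes they replace. Psmb9, which replaces Psmb6, was at 17.9, 16.9 and 15.5 FPKM in WT against 20.5, 21.4 and 21.7 in PGRN KO. It was higher in PGRN KO without overlap, by 0.33 ± 0.062 on the log2 scale (limma adjusted p = 0.0146), and the call was lost without PGRN KO replicate 5 or WT replicate 2. Psmb10, which replaces Psmb7, was at 35.5, 35.9 and 32.7 FPKM in WT against 31.0, 31.5 and 28.6 in PGRN KO (log2 fold change -0.19, limma adjusted p = 0.0692), and Psmb8, which replaces Psmb5, at 38.1, 39.5 and 32.4 and 38.6, 34.2 and 33.2 (-0.050, limma adjusted p = 0.754). The 3 inducible genes thus did not move as 1 group.

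The log2 ratio of Psmb9 to Psmb6 was -1.84, -1.83 and -1.84 in WT against -1.50, -1.37 and -1.29 in PGRN KO. Its mean was -1.84 ± 0.0055 (SD, n = 3) in WT and -1.39 ± 0.11 in PGRN KO. The difference is 1.37-fold on the linear scale, and the exact two-sided permutation test gave p = 0.1, the smallest it can give with 3 against 3. The ratio of Psmb10 to Psmb7 was 0.95 ± 0.051 in WT against 0.97 ± 0.091 in PGRN KO (exact permutation p = 0.8), and that of Psmb8 to Psmb5 was -1.39 ± 0.051 and -1.44 ± 0.12 (exact permutation p = 0.6). These ratios are not altered by a single scaling factor per library, though quantile normalization can alter them, and they were chosen after the values were seen. With a smallest possible p of 0.1, none of the 3 ratios could pass a threshold of 0.05 in this permutation test, adjusted or not. The test therefore cannot decide whether a ratio differs between the genotypes.

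**Figure D4:**
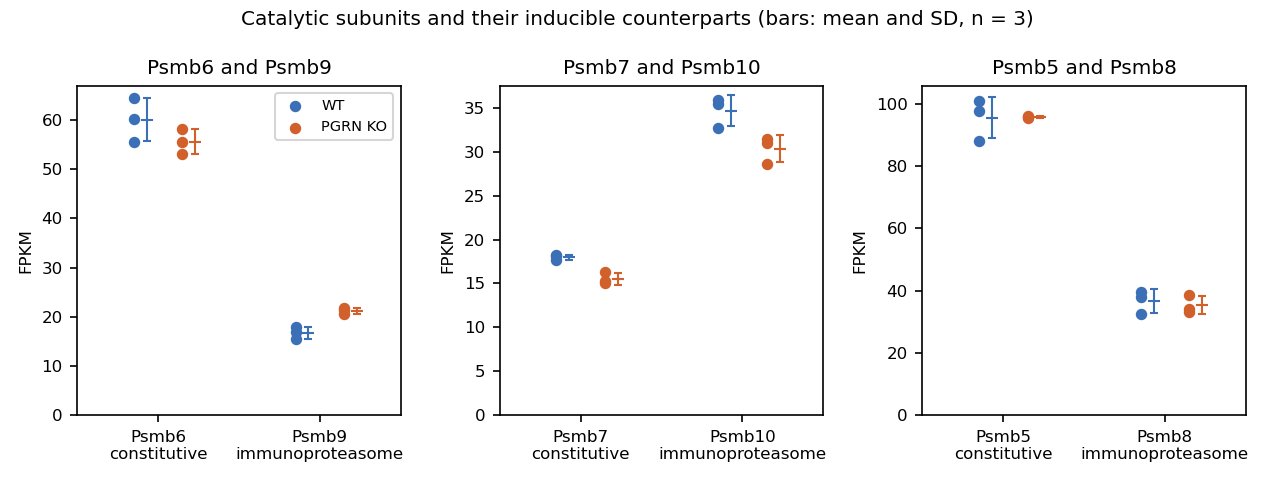
FPKM of the 3 constitutive catalytic genes and their inducible counterparts, with a point for each library (3 WT, blue; 3 PGRN KO, orange) and bars for mean and SD. Psmb9 is the gene of these 6 that lies higher in all PGRN KO libraries, and Psmb7 and Psmb10 lie lower.

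Around the subunits, 45 other genes of the ubiquitin-proteasome system were in the table. Their lists were drawn up from general knowledge, with earlier results of these data known. Of the 45, 8 were called (17.8%), close to the share of all genes. Besides Psmb9, Uchl5, a deubiquitinase that docks on the regulatory particle, was higher, with 5.44, 5.09 and 5.30 FPKM in WT against 6.08, 7.77 and 6.97 in PGRN KO (log2 fold change 0.33, limma adjusted p = 0.0396). Zfand5, a protein that activates the regulatory particle, was lower, with 37.6, 36.9 and 37.9 FPKM in WT against 30.2, 28.0 and 29.4 in PGRN KO (-0.35, limma adjusted p = 0.0036). The genotypes did not overlap in either gene. The call of Uchl5 was lost with quantile normalization, without the filter on low values and when any library but PGRN KO replicate 4 was left out.

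The regulators of proteasome genes held most of the other calls, since 5 of 9 were lower in PGRN KO (55.6%, against 9.95% of all genes). Of the 36 genes in the other lists, 2 were called higher and 1 lower, against 7.94% and 9.95% of all genes. Because the lists were chosen with earlier results known, the share of the regulators is a description and no test. Bach1, a repressor at antioxidant response elements, fell from 33.6, 35.4 and 35.0 FPKM in WT to 21.9, 20.1 and 22.8 in PGRN KO (log2 fold change -0.66 ± 0.057, limma adjusted p = 0.00094). Of the 3 small Maf genes, whose products pair with Bach1 as well as with Nfe2l1 and Nfe2l2, Mafk and Maff fell and Mafg was not called (-0.22, limma adjusted p = 0.0736). Mafk went from 54.5, 54.9 and 52.9 FPKM to 37.2, 32.0 and 32.9 (-0.66, limma adjusted p = 0.0014), and Maff from 172, 179 and 171 to 139, 111 and 119 (-0.50, limma adjusted p = 0.0094). Nfe2l2, the activator of the oxidative stress response, had 152, 151 and 165 FPKM in WT against 124, 114 and 130 in PGRN KO (-0.35, limma adjusted p = 0.0124). Keap1, which targets Nfe2l2 for degradation, had 18.6, 17.0 and 16.3 and 15.1, 13.6 and 13 (-0.29, limma adjusted p = 0.0367). All 5 genes were lower in each PGRN KO library than in any WT library. Bach1, Mafk, Maff, Nfe2l2 and Zfand5 stayed called under every alternative run, while Keap1 lost its call with plain totals, voom and other settings.

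Nfe2l1, the factor known to raise proteasome genes when the complex is inhibited, had 42.2, 41.0 and 38.0 FPKM in WT against 44.3, 38.3 and 37.2 in PGRN KO, with overlap and a 95% interval of its log2 fold change from -0.20 to 0.16. The protease Ddi2 and the glycanase Ngly1, which process its protein, were not called (log2 fold changes -0.20 and 0.15, limma adjusted p = 0.138 and 0.256). With voom, Ngly1 was called higher (limma adjusted p = 0.0146).

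The chaperones of core assembly, Psmg1 to Psmg4 and Pomp, all had log2 fold changes above 0 (0.19 to 0.35), and none passed the test (lowest limma adjusted p = 0.0771, for Pomp). Pomp was called higher with plain totals and voom (limma adjusted p = 0.0189 and 0.0016). Of the activators and inhibitor Psme1 to Psme4 and Psmf1 none was called as reported. Psme2, a subunit of the interferon-inducible cap, had 86.9, 95.2 and 85.9 FPKM in WT against 109, 114 and 91.8 in PGRN KO (limma adjusted p = 0.129). It was called higher with quantile normalization, plain totals and voom (limma adjusted p = 0.0455, 0.0385 and 0.00094). Among the genes that encode ubiquitin, Ubb had all PGRN KO values below those of WT, without a call (log2 fold change -0.23, limma adjusted p = 0.0642). Rps27a, a fusion of ubiquitin and a ribosomal protein, stood at 36.2, 37.9 and 35.6 FPKM in WT and at 51.9, 55.1 and 122 in PGRN KO, and it was not called (limma adjusted p = 0.0837), with replicate 6 far above the other two. Of 10 genes for ubiquitin shuttles and the segregase none was called as reported. Faf1 of that list was called higher with plain totals and voom (limma adjusted p = 0.0158 and 0.0025), and Rps27a with voom (limma adjusted p = 0.00012). Of all genes, 7.73% were called higher with quantile normalization, 14.5% with plain totals and 20.2% with voom.

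**Figure D5:**
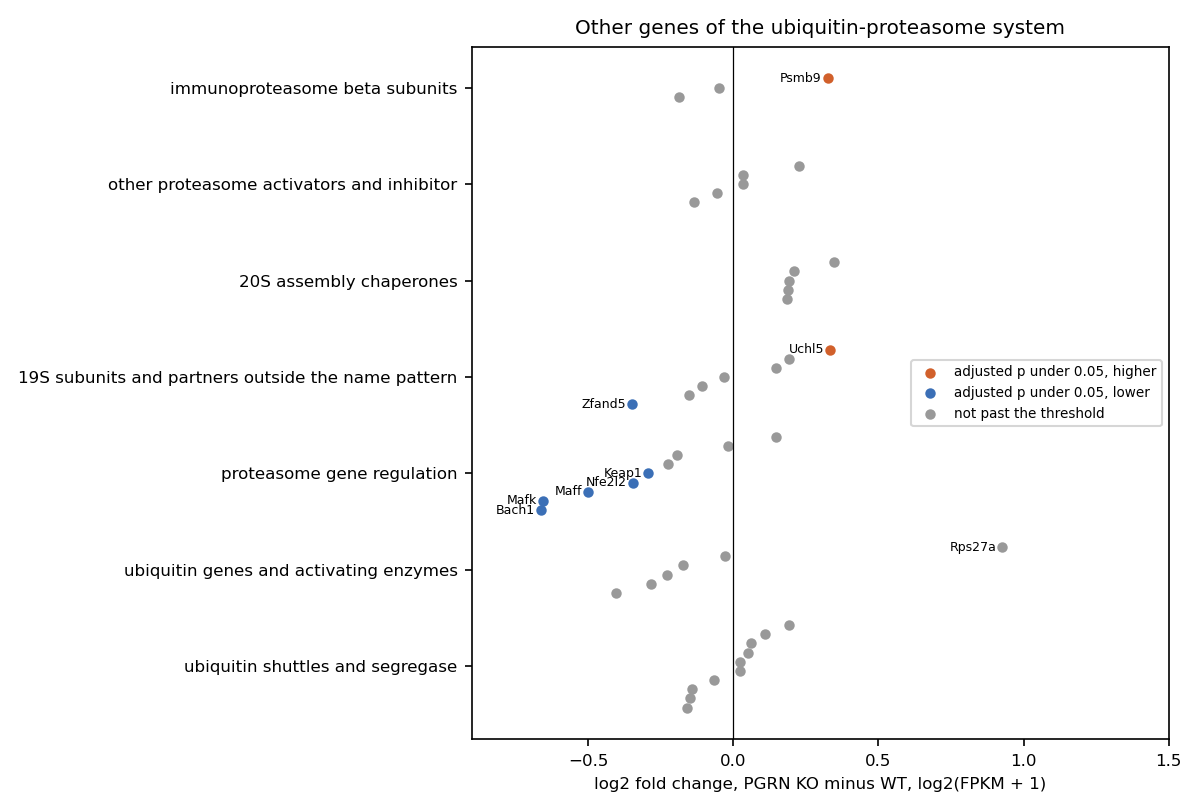
Log2 fold change (PGRN KO minus WT, on log2(FPKM + 1)) of the 45 other ubiquitin-proteasome genes, 1 point per gene, by list. Genes past an adjusted p of 0.05 are colored and named (2 higher in orange, 6 lower in blue), and 5 of the 6 lower ones are in the list of proteasome gene regulation. Rps27a is named for its distance from the others.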

How the data were processed

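RNA of 6 neutrophil cultures was sequenced as 150 bp paired-end reads from poly-A libraries (NEBNext Ultra, not strand-specific). The authors filtered and mapped the reads and deposited FPKM values for each gene. The paper names HISAT and HTSeq, whereas the submitters' processing notes list HISAT2 2.0.5, featureCounts 1.5.0-p3, DESeq2 1.20.0 and mm10. In each library the deposited FPKM times gene length was a multiple of 1 common step, and dividing by that step gave whole fragments within 0.05 for 100% of values above 0. The step gave the library size behind the FPKM, and the sum of fragments gave the depth. Intervals cover the spread between libraries alone.

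Genes averaging less than 0.1 FPKM were dropped, and log2(FPKM + 1) was compared with limma 3.58.1 (lmFit, eBayes with trend) in R 4.3.3, with two-sided p-values adjusted by Benjamini-Hochberg across the 14807 genes kept. Fold changes on this scale understate those of low genes. The fit was tested on simulated data. Python 3.11.15, numpy 2.4.6, pandas 2.3.3 and scipy 1.17.1 were used for the rest. Alternatives were pseudocounts of 0.1 and 0.5, other filters, median-of-ratios, quantile and plain-total scaling, voom, eBayes without trend or robust, protein-coding genes alone and each library left out.

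The proteasome genes and lists were chosen with earlier results of these data known. Values in every library are given for called genes, the catalytic, Psmd14, Psmd4 and inducible genes, and the 3 proteasome genes with the largest fold change; other genes were named after their values were seen. The labels give a ratio of fungus to cells of 1:1 and the paper 1:10. The macrophage libraries were not analysed here.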

Additional observations from a re-analysis of the deposited data

How the results depend on the processing

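Of the proteasome genes, 5 were called as reported, 3 with robust eBayes, 2 without trend, 9 with a mean FPKM of at least 1, 12 with plain totals, 8 with quantile normalization and 14 with voom. Leaving out 1 library gave 0 to 6, and 1322 to 2161 calls over all genes. Of 14807 genes in all, 2648 were called as reported, 2621 with robust eBayes and 2425 without trend. With plain totals it was 3083, with quantile normalization 2542 and with voom 4238. With a mean FPKM of at least 1, 2868 of 9249 genes were called, and with protein-coding genes alone 3028 of 11035. The counts of proteasome genes and of other genes of the system were not tested against these. Of the 45 other genes of the system, 14 were called with a mean FPKM of at least 1, with protein-coding genes alone and with voom, and 5 to 12 without 1 library. The median of core genes was 0.21 with plain totals, 0.13 with quantile normalization, 0.21 with voom and 0.049 to 0.13 without 1 library. That of regulatory genes was 0.080, -0.011 and 0.087, and -0.043 to -0.011 without 1 library. The cause of these shifts was not tested, except that plain totals and voom raise PGRN KO values by construction.

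Genes that changed sign were uncalled as reported. With plain totals and with voom, in that order, the log2 fold changes turned above 0 for Psmb6 (0.0094, 0.0093), Psmc2 (0.049, 0.053), Psmc5 (0.059, 0.060), Psmd12 (0.011, 0.013), Psmd3 (0.051, 0.055), Psmd6 (0.080, 0.087), Psmd7 (0.098, 0.10), Psmd8 (0.018, 0.019), Psmb8 (0.067, 0.069) and Nfe2l1 (0.099, 0.10). Quantile normalization turned Psmd7 (0.0094), Nfe2l1 (0.028) and Psmd9 (-0.014). Without 1 library the values ran from -0.043 to 0.070 for Psma6, -0.0026 to 0.028 for Psma7, -0.052 to 0.044 for Psmb5, -0.0039 to 0.027 for Psmd2, -0.045 to 0.0068 for Psmd7, -0.026 to 0.042 for Psmd9, -0.13 to 0.0048 for Psmb8, -0.0079 to 0.058 for Psme1 and -0.093 to 0.029 for Nfe2l1. The other pseudocounts changed no call of a proteasome gene. Median-of-ratios scaling returned the same medians and calls as reported, so it was no separate check. No paired analysis was made, because the labels name no pairs between the genotypes. Each core and regulatory gene held at least 2086 fragments per genotype, whereas Psmc3ip held 66 in WT.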
